A study of Rattus norvegicus with 12 samples.

Results

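The genes described here build the machinery that moves membrane between the compartments of a cell, together with the proton pump that acidifies those compartments. They were taken from the array annotation as every probe set (the set of probes that reports 1 transcript) whose only gene symbol begins with Rab or Arf and a digit, Ap1, Ap2 or Ap3 and a subunit letter, Stx or Vamp and a digit, Cop and a subunit letter of the coatomer, or Atp6. This gave 102 of 8740 probe sets, for 70 of the 4736 gene symbols that the annotation gives to a single-gene probe set. By family there were 43 Rab, 7 Arf, 14 adaptor, 13 Stx, 7 Vamp, 5 coatomer and 13 Atp6 probe sets. The Rab rule also takes in Rab11fip5, which encodes a protein that binds Rab11, and Rab3ip, an activator of Rab8, neither of which is itself a Rab GTPase.

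Rab and Arf proteins are small GTPases that switch on membranes between an active and an inactive form. Active Arf proteins recruit coats, among them the coatomer of the Golgi and the clathrin adaptors AP1 (Golgi and endosomes) and AP2 (plasma membrane), which select cargo and bend the membrane, while active Rab proteins steer the finished vesicles to their target. Fusion is carried out by SNARE proteins, with syntaxins (Stx) mostly on the target membrane and VAMPs mostly on the vesicle. The V-ATPase, encoded by the Atp6 genes, pumps protons into endosomes, lysosomes and secretory vesicles: its V1 sector in the cytosol splits ATP and its V0 sector in the membrane carries the protons.

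CC531 is a rat colon carcinoma cell line. Its RNA was hybridised to 12 expression arrays: 2 of untreated cells, at 2 and 24 h, 5 of cells treated with 4.5 mM butyrate and 5 of cells treated with 3 mM aspirin, each at 2, 6, 12, 16 and 24 h. Butyrate, a product of bacterial fermentation in the colon, inhibits histone deacetylases, and aspirin blocks cyclooxygenases. There was 1 array for each treatment and hour, and the labels do not say whether arrays came from separate cultures, so the hours of a treatment served as its replicates, and a p-value reflects no more than how much these arrays vary, changes over the hours included.

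The values are linear intensities, and below they are listed in order of hour for each treatment. Their trimmed means lay between 1001.5 and 1002.1 on the 12 arrays, and between 21.5 and 25.5% of the values of an array were negative. Before taking log2, values under 90.91 (the floor) were raised to it. A filter on dim probe sets left 6118 of 8740 (70%) for testing, among them 93 of the 102 members (91.2%), for 66 genes. Atp6v1g3, Rab27a, Rab29 and Rab2a had no tested probe set. The other 5 untested probe sets belong to genes that another probe set covers. On 72 of the 93 tested members no array was at the floor, and on 21 at least 1 array was. The words at least are used for a change only where the lower group lay wholly at the floor and the higher group wholly above it. Intensities of different probe sets were not compared with each other. Transcripts of epithelial and colon markers summed to 66011 and 77183 on the untreated arrays, 60990 to 70135 with butyrate and 64297 to 74511 with aspirin. Within that sum, with butyrate against untreated by the limma test described below, both probe sets of Krt19 rose (by 1.17 and 0.87 on the log2 scale, adjusted p = 0.0172 and 0.0166) and both of Krt18 fell (-0.84 and -0.48, adjusted p = 0.00406 and 0.0258), among 12 tested. Of 11 tested probe sets of fibroblast and smooth muscle markers 1 rose, M27207mRNA_s_at of Col1a1, by 2.32 (adjusted p = 0.0165), while the other 3 of Col1a1 lay between -0.36 and 0.15 and were not called. That list summed to 4556.5 and 5471.9 untreated, 3842 to 5420.4 with butyrate and 2127 to 4777 with aspirin. Markers of blood, endothelium and hepatocytes gave no call. The part of these transcripts in the changes below was not tested.

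By the test below, butyrate raised many more of the traffic and pump genes than it lowered. With aspirin none of them passed that test, and only 0.147% of all 6118 tested probe sets did. A change is called below at an adjusted p of at most 0.05 in a limma fit over all 6118 probe sets, and is given on the log2 scale with its standard error. Against untreated cells, 15 of 93 members (16.1%) rose with butyrate, where 7.78% of all tested probe sets did, and 2 (2.15%) fell, where 3.92% of all did. The median change of the members was 0.38, and that of all tested probe sets 0.00. Among the 72 members with no array at the floor, 11 rose and 1 fell, with a median of 0.37, where 8.50% of all such probe sets rose and 4.78% fell, with a median of -0.02. In total RNA of a culture, a change in the share of cells that carry a transcript and a change in its amount per cell cannot be told apart.

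These counts rest heavily on the 2 untreated arrays. Without the untreated 2 h array 11 members were called (11.8%; 5.84% of all tested probe sets). Without that of 24 h 7 were (7.53%), no more than the share of all tested probe sets, 7.55%: 5.38% of members and 3.6% of all rose, and 2.15% and 3.96% fell. Of the 17 calls, 6 stayed without the untreated 2 h array and 6 without that of 24 h, and only those of Arf6 and Rab33b stayed in each of 12 fits that left out 1 array. In 5 of the 12 fits, here and below, the array left out was of aspirin, which alters only the shared spread and not the change itself. The number called was 10 without the butyrate 12 h array (10.8%; 5.62% of all), 9 without that of 16 h (9.68%; 5.07% of all) and 30 without that of 2 h (32.3%; 19.1% of all). When only the 2 h and 24 h arrays were fitted with the hour as a block, 0 members were called, and no probe set of the whole array was. Of the members 11 had an unadjusted p under 0.05 there, and the count over all probe sets is not given here. The untreated arrays themselves differed at least 2-fold on 15 of the 93 members, a share near the 16.5% of all tested probe sets. Of these 15, 10 were brighter at 2 h.

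Against aspirin at the same hours, 34 members (36.6%) were higher with butyrate, where 15.6% of all tested probe sets were, and 4 (4.30%) were lower, where 9.61% of all were. The median difference was 0.51, and 0.10 over all tested probe sets. All 34 were higher with butyrate in each of the 5 hours, and for 27 of them the butyrate and aspirin arrays did not overlap. The 34 were picked by the test on these same arrays, so neither count is separate support. The matching shares of all tested probe sets are not given here. Centring every array on its median moves the difference of all probe sets by -0.31, to a median of -0.22. The members then counted 21 higher (22.6%; 9.09% of all) and 12 lower (12.9%; 22.8% of all), with a median of 0.19. Where an array at 6, 12, 16 or 24 h was left out with its partner of the same hour, 9 to 16 members were called (9.68 to 17.2%; 3.84 to 9.84% of all), and without 2 h 40 were (43%; 26.9% of all). Calls that stayed in each of the 10 such fits were those of Arf6, Atp6ap1, Atp6v1b2, Rab3d and Ap2a2 and of 1 probe set each of Atp6v1a, Stx1a, Ap1b1 and Copb2, 9 of 38. Leaving out either array of an hour drops both, so for this comparison, here and below, the 10 fits are only 5 different ones.

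**Figure D1:**
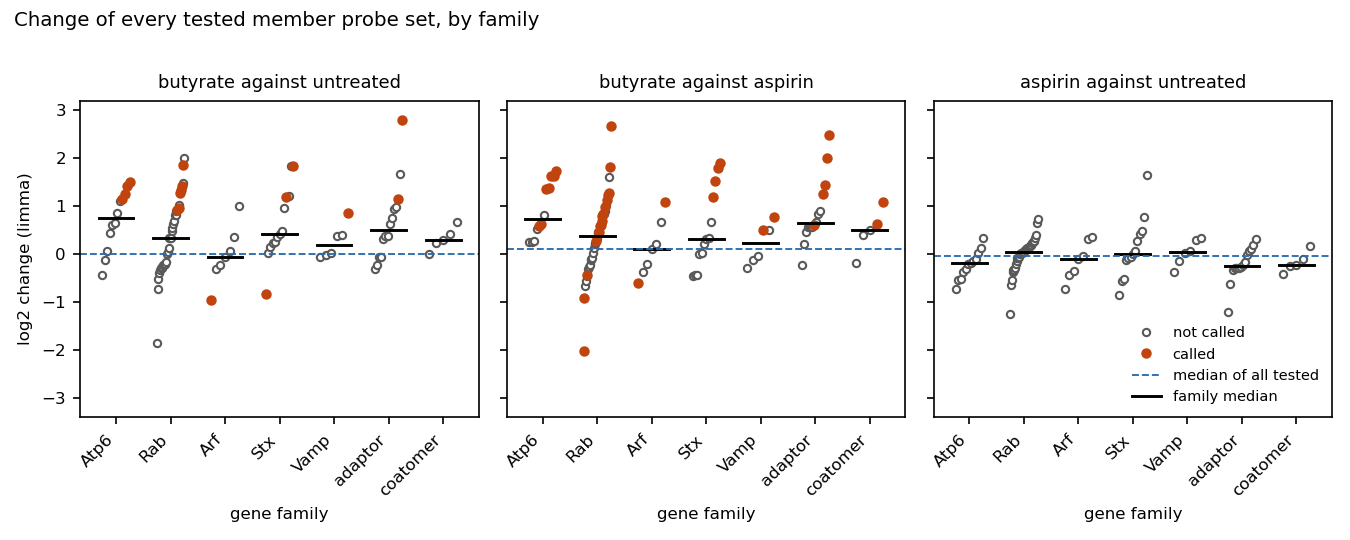
Log2 change of each tested member (vertical axis, limma) by gene family (horizontal axis) in 3 comparisons; filled points were called, bars are family medians and the dashed line is the median of all tested probe sets. All 12 Atp6 points lie above 0 against aspirin (9 do when arrays are centred on their medians), and no point is filled for aspirin against untreated.

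Compared without a test, the butyrate arrays drew away from the untreated ones over the first hours. The median difference of the members from the mean of both untreated arrays was 0.15, 0.25, 0.46, 0.54 and 0.44 at 2, 6, 12, 16 and 24 h of butyrate, and -0.06, -0.04, 0.00, -0.07 and -0.05 with aspirin. At least 2-fold above the untreated mean were 10 members at 2 h of butyrate (6.57% of all tested probe sets were), 23 at 6 h (11.4%), 23 at 12 h (14.5%), 30 at 16 h (14.3%) and 26 at 24 h (15.8%). With aspirin the counts were 1, 3, 5, 1 and 4. At least 2-fold below the untreated mean were 0, 3, 2, 1 and 3 members with butyrate and 6, 5, 2, 1 and 2 with aspirin. Shares of all tested probe sets are not given here for the aspirin counts or for those below the mean. Each treated array was also set against the untreated one of its own hour. The median was then 0.14 at 2 h and 0.53 at 24 h of butyrate (-0.009 and 0.037 over all tested probe sets). With butyrate 58 members were higher and 31 lower at 2 h, and 65 higher and 24 lower at 24 h. With aspirin 37 were higher and 50 lower at 2 h, and 46 higher and 40 lower at 24 h. Shares of all tested probe sets are not given here for these counts either.

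Every butyrate array lay above both untreated arrays for 35 of the 93 members (37.6%), where this held for 14.7% of all tested probe sets, and below both for 4 (4.30%), where it held for 13.2%. The aspirin arrays all lay above both untreated arrays for 7 members (7.53%; 3.81% of all) and below both for 10 (10.8%; 7.78% of all).

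**Figure D2:**
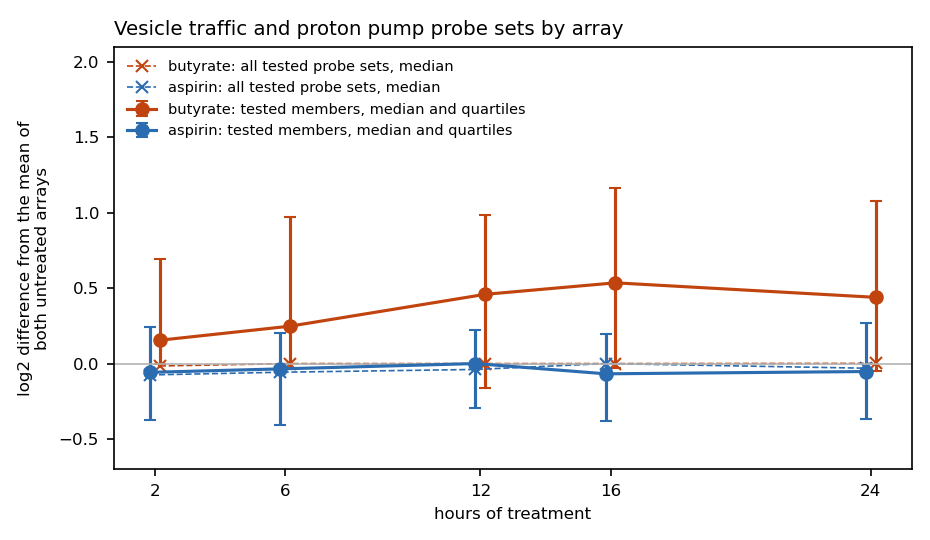
Log2 difference of the tested members from the mean of both untreated arrays (vertical axis) by hours of treatment (horizontal axis), as median and quartiles, with crosses for the median of all tested probe sets. The butyrate medians run from 0.15 at 2 h to 0.54 at 16 h, while the aspirin medians stay between -0.07 and 0.00.

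The proton pump had the highest share of calls among the 7 families in both butyrate comparisons; the difference between families was not tested. Of 12 tested Atp6 probe sets, for 8 genes, 4 rose with butyrate against untreated (33.3%) and 7 were higher than with aspirin (58.3%), with median changes of 0.75 and 0.72. All 12 were above 0 against aspirin, and 10 against untreated. With arrays centred on their medians 9 were above 0 in each comparison, 2 rose against untreated (16.7%, the same share as in the Rab and VAMP families) and 5 were higher than with aspirin. With quantile normalization 11 were above 0 in each, 5 rose and 7 were higher than with aspirin. None was called for aspirin against untreated, where the median was -0.19 and 2 had an unadjusted p under 0.05 (656 of all 6118 probe sets did).

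In the membrane sector, Atp6v0a1 encodes the large a subunit, which takes part in proton passage and in placing the pump. Its brighter probe set M58758_g_at read 615 and 916 untreated, 1209.5, 1923, 3054, 2580.2 and 1749 with butyrate, and 694, 537, 687, 444 and 701 with aspirin. Each butyrate array lay above both untreated and every aspirin array, with the highest value at 12 h. The change against untreated was 1.41 ± 0.34 (adjusted p = 0.0197), a 2.67-fold rise, and that against aspirin 1.73 ± 0.27 (adjusted p = 0.0111). The call against untreated held in 10 of 12 fits without an array, at adjusted p = 0.16 without untreated 2 h and 0.0436 without untreated 24 h. The dimmer M58758_at read 351 and 349.5 untreated, 476, 758, 1088, 955 and 660.3 with butyrate, and 219, 183, 263, 289 and 293 with aspirin. Here the aspirin arrays all lay below the untreated ones and the butyrate arrays all above them. Its difference from aspirin was 1.62 ± 0.22 (adjusted p = 0.00874), while the change from untreated missed the threshold at 1.11 ± 0.35 (adjusted p = 0.0533), as did that of aspirin at -0.51 ± 0.35 (adjusted p = 0.64).

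The c subunit gene Atp6v0c, whose product forms the ring that turns in the membrane, was measured by a pair of probe sets and gave no call. D10874_at lay between 9114 and 12230.0 untreated, 9608 and 12423 with butyrate and 7544 and 11872 with aspirin, and D10874_g_at behaved alike, with changes of 0.06 ± 0.18 (adjusted p = 0.864) and -0.12 ± 0.16 (adjusted p = 0.686) against untreated. On D10874_at butyrate minus aspirin was between -0.14 and 0.12 at the first 3 hours and 0.58 and 0.59 at 16 and 24 h. Atp6ap1, an accessory subunit of the V0 sector, read 2534 and 2126 untreated, 3251, 2908, 3122, 3314 and 3147 with butyrate, and 2313, 1936, 1882, 1974 and 2055 with aspirin. The butyrate arrays formed a narrow band above all others. The difference from aspirin, 0.63 ± 0.09 (adjusted p = 0.00851), was called in each of the 10 fits that left out 1 array with its partner, and that from untreated was 0.44 ± 0.16 (adjusted p = 0.0922).

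In the V1 sector, Atp6v1a encodes the catalytic A subunit that binds ATP. Its probe set rc_AA892006_g_at read 1293 and 543 untreated, 2122, 3019.6, 3025, 2185 and 1771 with butyrate, and 773, 701, 719.8, 721 and 906 with aspirin. All butyrate arrays lay above both untreated arrays, which were themselves more than 2-fold apart, and above every aspirin array. The change was 1.50 ± 0.31 (adjusted p = 0.0102) against untreated and 1.64 ± 0.20 (adjusted p = 0.00703) against aspirin. Leaving out the untreated 2 h array gave adjusted p = 0.0036 for this rise and leaving out that of 24 h 0.1, and 11 of 12 such fits called it.

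A second probe set of Atp6v1a, rc_AA893217_at, read 1423 and 977 untreated, 2620.5, 3743, 3537, 2403 and 2109 with butyrate, and 1928, 908, 1326, 879 and 769 with aspirin. It peaked at 6 and 12 h of butyrate, with changes of 1.25 ± 0.35 (adjusted p = 0.0342) and 1.36 ± 0.23 (adjusted p = 0.0131). Without the untreated 2 h or 24 h array the adjusted p against untreated was 0.0829 or 0.235, and 6 of 12 fits without an array called it. The third, the dimmer rc_AA892006_at, disagreed: it read 521 and 482 untreated, 322, 354, 411, 346 and 424 with butyrate, and 323, 421, 228, 326 and 257 with aspirin. Its butyrate arrays lay below both untreated arrays, with an uncalled change of -0.44 ± 0.30 (adjusted p = 0.371), the largest fall of the pump family.

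Atp6v1b2 encodes the brain-type B subunit, which alternates with A in the catalytic ring. It read 1255 and 1109.6 untreated, 1526, 2397, 1988, 2644 and 2252 with butyrate, and 762, 624, 745, 936 and 1091 with aspirin. Butyrate arrays were above and aspirin arrays below both untreated arrays. Its difference between the drugs was 1.38 ± 0.17 (adjusted p = 0.00756) and was called in 10 of 10 fits without an array, while neither drug's change from untreated was called, at 0.85 ± 0.26 (adjusted p = 0.0525) for butyrate and -0.53 ± 0.26 (adjusted p = 0.499) for aspirin.

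Atp6v1d, for the central stalk, read 3510.3 and 3142 untreated, 5742, 7329, 7374, 8555 and 8494 with butyrate, and 6547, 4526, 4022, 2623 and 4272 with aspirin. With butyrate it rose by 1.16 ± 0.27 (adjusted p = 0.0162), and the aspirin 2 h array overlapped the butyrate ones, so that the difference between the drugs was 0.82 ± 0.25 (adjusted p = 0.0631). Of 12 fits that left out 1 array 10 called this change, with adjusted p = 0.0804 without the untreated 2 h array and 0.112 without that of 24 h. Atp6v1c1, a peripheral stalk subunit that controls the binding of V1 to V0, lay between 5767 and 7451 with butyrate, 4225 and 4472 untreated, and 3197 and 5515 with aspirin, and was called only against aspirin at 0.58 ± 0.16 (adjusted p = 0.0476). That call was kept in 2 of 10 fits without an array. Atp6v1f, another central stalk subunit, read 5875 and 6418 untreated, 6759.5, 7155, 10679, 12836 and 12991 with butyrate, and 7063, 6759, 7200.5, 5858 and 6717 with aspirin. With butyrate it climbed after 6 h, a slope of 0.30 ± 0.06 (adjusted p = 0.0163) per doubling of the hours, called in 7 of 10 fits without an array. Of the 10 such fits for a butyrate slope, here and below, 5 leave out an aspirin array, which alters only the spread.

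**Figure D3:**
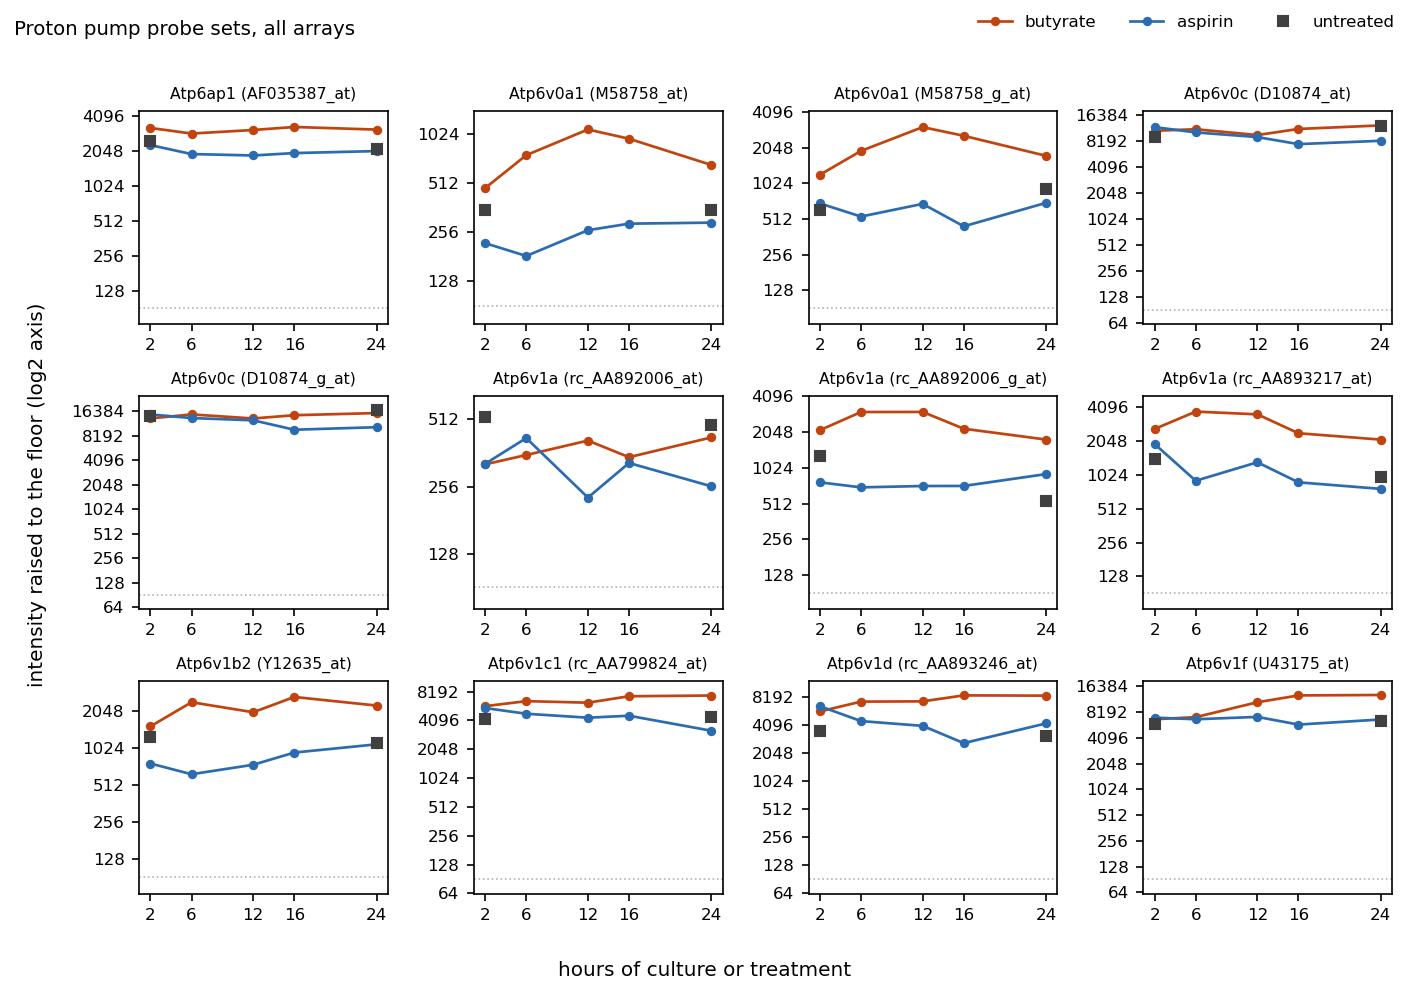
Intensity raised to the floor (log2 vertical axes, dotted line at the floor of 90.91) by hours (horizontal axes) for the 12 tested Atp6 probe sets on all arrays. Butyrate lines run above aspirin lines at each hour for Atp6ap1, Atp6v0a1, Atp6v1b2, Atp6v1c1 and 2 of the 3 Atp6v1a probe sets, and for Atp6v0c close to them up to 12 h and above them at 16 and 24 h.

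The promoters of the 3 pump genes that rose are shown beside that of Arf6, the member with the smallest adjusted p among those that fell, since risers and fallers alike can carry the same short motif. Sequences are from RefSeq on build GRCr8 and hold the 120 bases before the annotated start of the gene, 5′ to 3′ on the gene's strand. Capitals mark GC boxes, the hexamer GGGCGG on either strand, a core that Sp1 family factors can bind.
Atp6v0a1 (chr10:86436021-86436140, plus strand): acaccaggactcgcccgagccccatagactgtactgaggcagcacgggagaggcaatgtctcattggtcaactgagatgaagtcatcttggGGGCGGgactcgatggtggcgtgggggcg
Atp6v1a (chr11:70067382-70067501, plus strand): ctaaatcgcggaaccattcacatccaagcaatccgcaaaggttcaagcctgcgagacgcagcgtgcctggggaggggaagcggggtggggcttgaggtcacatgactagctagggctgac
Atp6v1d (chr6:103405347-103405466, minus strand): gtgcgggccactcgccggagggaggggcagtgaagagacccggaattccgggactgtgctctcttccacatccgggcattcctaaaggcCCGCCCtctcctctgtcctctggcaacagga
Arf6 (chr6:93589657-93589776, plus strand): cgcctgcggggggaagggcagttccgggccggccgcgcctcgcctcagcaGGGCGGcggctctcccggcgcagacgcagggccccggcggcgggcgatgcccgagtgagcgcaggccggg

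Over the 250 bases before the start, a GC box was present in 48 of 63 member genes with a promoter in the table (76.2%), and in 57.1% of the 3010 genes with a tested probe set. It was present in 10 of the 11 genes that rose with butyrate and had a promoter there, the exception being Atp6v1a, and in 4 of 7 Atp6 genes. The E-box core CACGTG, searched on both strands, was in 3 of the 63 (4.76%) and in 8.27% of genes with a tested probe set. The longer TCACGTG, which contains CACGTG, was in the same number of members and in 4.68% of tested genes. None of the 11 held either. A match says only that these letters stand in the window.

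Among Rab genes, 6 of 36 tested probe sets rose with butyrate (16.7%), none fell, and 17 had an unadjusted p under 0.05. For comparison, 42 of all 93 members and 1763 of all 6118 probe sets had such a p, numbers that apply to the families below too. Against aspirin 13 Rab probe sets were higher and 3 lower. Of all tested probe sets 7.78% rose and 3.92% fell with butyrate, and 15.6% were higher and 9.61% lower than with aspirin. These shares apply to the families below too. The members called in both directions cover different routes: Rab3 and Rab26 proteins act in regulated secretion, Rab4, Rab5 and Rab11 in endosomes and recycling, and Rab6 and Rab33b at the Golgi.

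Rab3d, found on secretory granules of non-neuronal cells, gave the largest difference between the drugs of all 93 members. It read 348 and 469 untreated, 720.2, 1425, 985, 1137 and 1245 with butyrate, and 165, 126, 161, 219 and 190.4 with aspirin. No array of one treatment overlapped another group: butyrate was highest, untreated in between and aspirin lowest. The rise with butyrate was 1.41 ± 0.33 (adjusted p = 0.0181) and the difference from aspirin 2.66 ± 0.24 (adjusted p = 0.00496), or 6.34-fold. The call against untreated held in 11 of 12 fits without an array, at adjusted p = 0.104 without untreated 2 h and 0.0343 without untreated 24 h. The lower level with aspirin, -1.25 ± 0.33 (adjusted p = 0.256), was the largest fall of a Rab probe set in that comparison and was not called.

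Rab3a, which controls synaptic vesicle release, was dim and read 106 and 69 untreated, 289.8, 197, 204, 246 and 339 with butyrate, and -22.7, 123, 81.1, 149 and 12.7 with aspirin. With 1 of 2 untreated and 3 of 5 aspirin arrays set to the floor, the rise was 1.35 ± 0.28 (adjusted p = 0.0102) against untreated and 1.23 ± 0.23 (adjusted p = 0.0169) against aspirin. Leaving out the untreated 2 h array gave adjusted p = 0.0433 for this rise and leaving out that of 24 h 0.0636, and 11 of 12 such fits called it. Rab3b, its close relative in neuroendocrine and epithelial cells, read 192 and 323 untreated, 262, 315, 1008, 1513 and 1305 with butyrate, and -24.5, 94.7, 614, 272 and 209 with aspirin on AA799389_g_at. At 2 and 6 h the butyrate values were within the untreated range, and from 12 h they were above every untreated and aspirin array. The difference from aspirin was 1.82 ± 0.32 (adjusted p = 0.015), while 1.49 ± 0.79 (adjusted p = 0.239) against untreated missed the threshold. On the dimmer AA799389_at the values were -1.5 and 17.4 untreated, 40.5, 90.6, 234, 331 and 331 with butyrate, and -5.2, 29.9, -51.5, 3.6 and -24.6 with aspirin. Only the 3 latest butyrate arrays were above the floor, and the slope with butyrate was 0.61 ± 0.11 (adjusted p = 0.0145) per doubling of the hours, called in 9 of 10 fits without an array.

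Rab26, which acts on granules of secretory cells, read 138 and 407 untreated, 543, 964, 1055, 914 and 946 with butyrate, and 344, 364, 303, 447 and 549.9 with aspirin. Each butyrate array lay above both untreated arrays, which differed from each other by more than 2-fold, and the butyrate 2 h value was just under the highest aspirin one. It rose by 1.86 ± 0.41 (adjusted p = 0.0138) against untreated, and the difference from aspirin was 1.13 ± 0.22 (adjusted p = 0.0189). Without the untreated 2 h or 24 h array the adjusted p against untreated was 0.144 or 0.00379, and 11 of 12 fits without an array called it. Aspirin against untreated, at 0.73 ± 0.41 (adjusted p = 0.543), was the largest uncalled rise of a Rab probe set.

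Rab33b, a Golgi Rab with a part in autophagy, read 729.6 and 645 untreated, 1224, 1387, 1203, 1308 and 1385 with butyrate, and 812, 854, 879.6, 1016 and 782 with aspirin on rc_AI639102_g_at. The 3 groups did not overlap, in the order butyrate, aspirin, untreated. Its rise of 0.92 ± 0.21 (adjusted p = 0.0153) was called in each of 12 fits without an array, the only rise of a member for which this held, and the difference from aspirin was 0.59 ± 0.13 (adjusted p = 0.0242). The companion rc_AI639102_at was at the floor on every array but 1 and gives no level.

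Rab4a, which returns receptors from early endosomes to the surface, read -218 and -189 untreated, 91.6, 222, 272, 314 and 306 with butyrate, and -80.2, -57.3, 55.9, -432 and -48.3 with aspirin. All untreated and aspirin arrays were at the floor, the butyrate 2 h array was only just above it, and from 6 h the butyrate values were higher. The rise was at least 1.28 ± 0.37 (adjusted p = 0.0407) against untreated and at least 1.28 ± 0.28 (adjusted p = 0.0258) against aspirin, with a butyrate slope of 0.50 ± 0.07 (adjusted p = 0.00691) per doubling. Of 12 fits that left out 1 array 1 called this change, with adjusted p = 0.178 without the untreated 2 h array and 0.171 without that of 24 h. Rab5b, of early endosomes, lay between 1506 and 2240.3 with butyrate, 831 and 1173 untreated and 872 and 1318 with aspirin. It rose by 0.95 ± 0.25 (adjusted p = 0.0258) and was higher than with aspirin by 0.83 ± 0.18 (adjusted p = 0.0258). The call against untreated held in 9 of 12 fits without an array, at adjusted p = 0.035 without untreated 2 h and 0.151 without untreated 24 h.

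The closely related recycling Rabs 11a and 11b went opposite ways against aspirin. None of their calls there stayed in every fit that left out an array. Rab11a was called higher with butyrate on 2 of its 3 probe sets, by 0.47 ± 0.12 (adjusted p = 0.037) on M75153_at, whose slope of 0.24 ± 0.05 (adjusted p = 0.03) was called, and by 0.28 ± 0.08 (adjusted p = 0.0433) on E03859cds_s_at. The latter turned to -0.03 when arrays were centred on their medians. The third, M75153_g_at, was not called but was also higher, by 0.34, 0.13, 0.21, 0.63 and 0.86 in order of hour. Rab11b was called lower on 2 of its 3. On D01046_at it read 1219 and 1284 untreated, 1285, 139, 130.4, 401 and 532 with butyrate, and 1527, 1685, 1346, 1156 and 1398 with aspirin. The butyrate 2 h array was level with the untreated ones, those of 6 and 12 h were far below them, and those of 16 and 24 h were between. The difference from aspirin was -2.03 ± 0.53 (adjusted p = 0.0393) there and -0.91 ± 0.21 (adjusted p = 0.0298) on rc_AA891669_g_at. Against untreated they were -1.85 ± 0.67 (adjusted p = 0.0862), the largest fall of any member, and -0.72 ± 0.31 (adjusted p = 0.146), neither called. The third probe set, rc_AA891669_at, was low only at 24 h of butyrate, at 149, with 881 to 1033 at the earlier hours.

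Further Rab members were called only against aspirin. Rab11fip5 read 1182 and 499 untreated, 1422, 1944, 1415, 1188 and 1265 with butyrate, and 872, 759.8, 570.2, 509 and 1032 with aspirin, with all butyrate arrays above all others and a difference of 0.98 ± 0.20 (adjusted p = 0.0216). Rab6a, of traffic within and from the Golgi, read 1606 and 899 untreated, 1942, 1902, 2382, 2037 and 2354 with butyrate, and 1575, 1281, 1305, 1094 and 932 with aspirin. Butyrate arrays again lay above all others, and the difference was 0.79 ± 0.17 (adjusted p = 0.023). Rab8b, of delivery to the cell surface, differed by 0.60 ± 0.16 (adjusted p = 0.0409), and Rab34, of lysosome position and cilia, by 0.70 ± 0.18 (adjusted p = 0.0391). Rab28 was lower with butyrate, by -0.44 ± 0.10 (adjusted p = 0.0307) on X78606_at and, short of the threshold, -0.45 ± 0.13 (adjusted p = 0.0512) on its other probe set. Of these calls, each held in 0 to 4 of 10 fits without an array. The largest Rab change against untreated was that of Rab12, 2.01 ± 0.74 (adjusted p = 0.0922), which was not called. Its butyrate values ran from the floor to 1182, with both untreated and 3 of 5 aspirin arrays at the floor. Rab1a, Rab5a, Rab7a, Rab8a, Rab10, Rab13, Rab14, Rab15, Rab38, Rab3c, Rab4b and Rab3ip gave no call in any comparison.

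**Figure D4:**
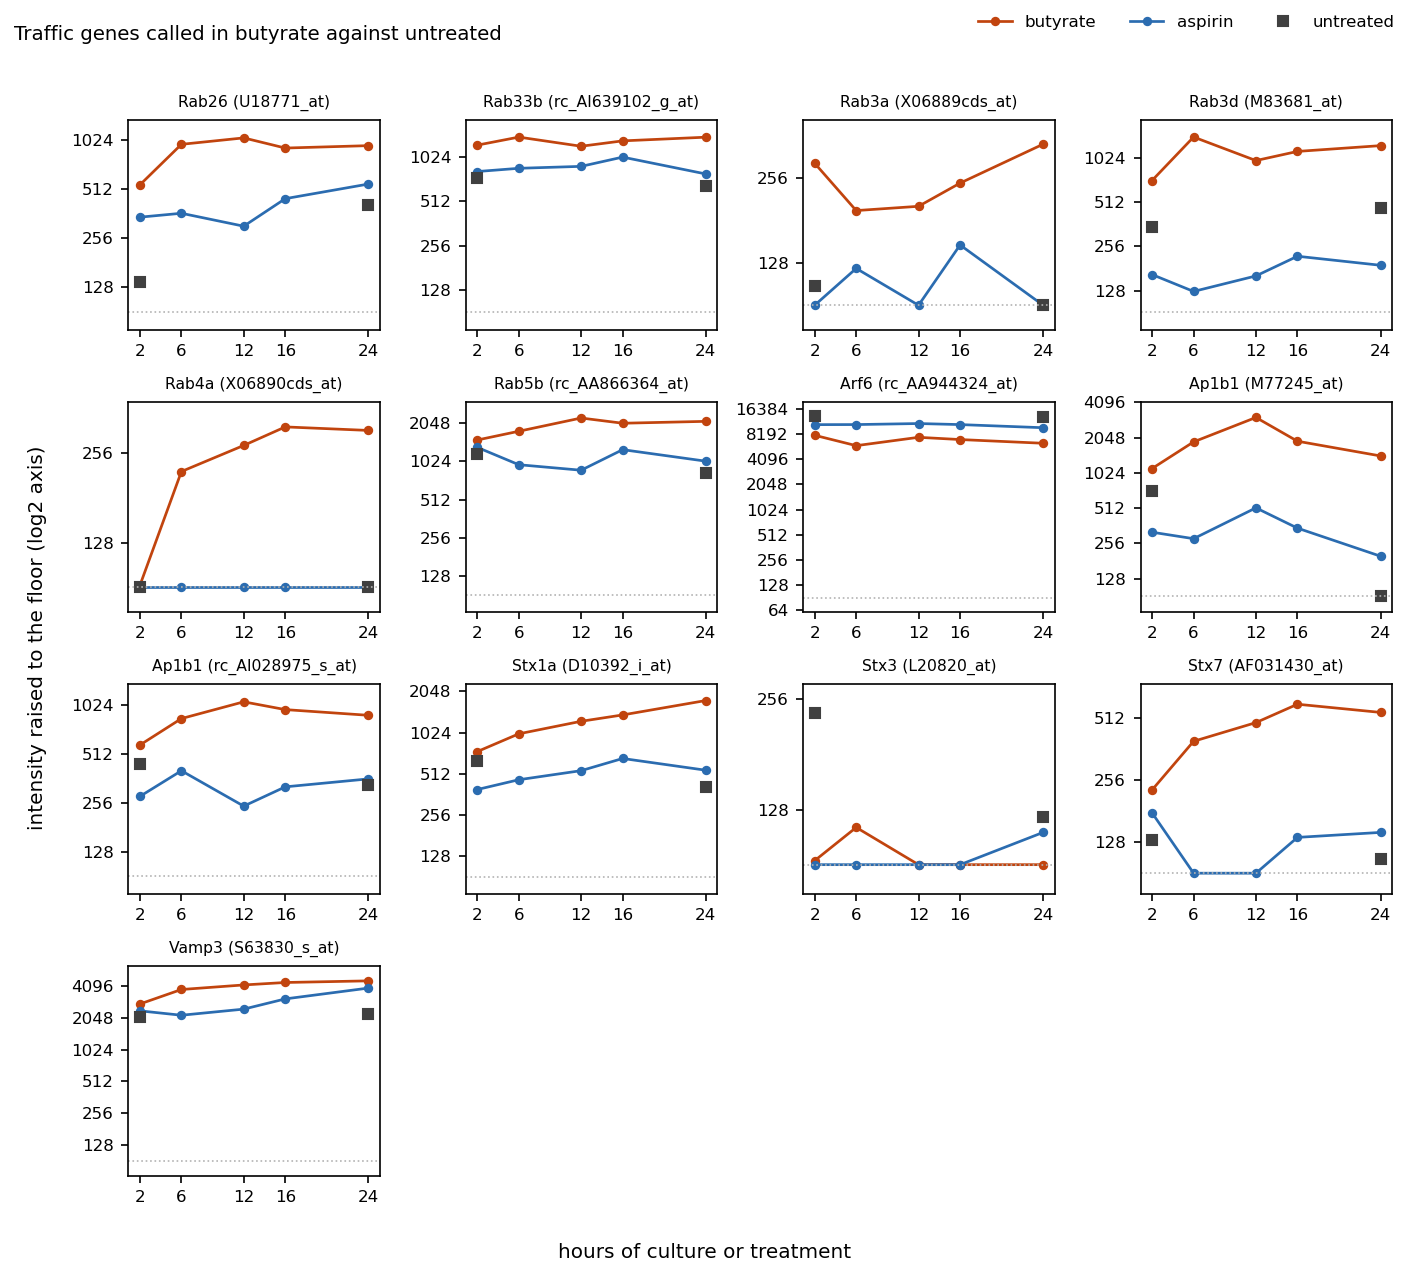
Intensity raised to the floor (log2 vertical axes, dotted line at the floor of 90.91) by hours (horizontal axes) for the 13 traffic probe sets called in butyrate against untreated, on all arrays. Arf6 and Stx3 lie below the untreated squares with butyrate, and the other 11 above them, although Rab4a is only just above the floor at 2 h.

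Of 7 tested Arf probe sets 0 rose (7.78% of all did) and 1 fell (14.3%, against 3.92% of all) with butyrate, 2 having an unadjusted p under 0.05. With only 7 probe sets, a count of 0 rises does not set the family apart from all probe sets. Against aspirin 1 was higher and 1 lower. Arf6, the Arf of the plasma membrane and of endosome recycling, read 13569 and 13204 untreated, 7921, 5954, 7491, 7044 and 6358 with butyrate, and 10612, 10634, 10940.0, 10630.0 and 9752 with aspirin. The 3 groups did not overlap, with untreated highest, aspirin next and butyrate lowest at every hour. The fall with butyrate, -0.95 ± 0.13 (adjusted p = 0.00106), had the smallest adjusted p of any member and was called in 12 of 12 fits without an array. The difference from aspirin was -0.60 ± 0.08 (adjusted p = 0.00776), called in 10 of 10, and aspirin against untreated was -0.35 ± 0.13 (adjusted p = 0.404).

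Arf3, a Golgi Arf, read 844 and 259 untreated, 508, 549, 570.1, 698 and 708 with butyrate, and 277, 230.2, 247, 379.9 and 301 with aspirin. Butyrate arrays lay above all aspirin arrays but between the untreated ones. It was higher than with aspirin by 1.09 ± 0.17 (adjusted p = 0.0111), called in 6 of 10 fits, with 0.36 ± 0.40 (adjusted p = 0.607) against untreated. The pair of Arf2 probe sets disagreed, at 1.01 ± 0.31 (adjusted p = 0.0515) and -0.23 ± 0.30 (adjusted p = 0.677) against untreated. Arf1, Arf4 and Arf5 gave no call, at 0.08 ± 0.20 (adjusted p = 0.851), -0.30 ± 0.17 (adjusted p = 0.28) and -0.05 ± 0.21 (adjusted p = 0.903).

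Of 14 adaptor probe sets 2 rose with butyrate, both of Ap1b1, none fell and 6 had an unadjusted p under 0.05, while 5 were higher than with aspirin. Ap1b1, the large beta subunit of the Golgi and endosome adaptor, read 716 and 48.9 untreated, 1116, 1885, 3048, 1909.7 and 1429 with butyrate, and 319, 281, 515, 345 and 199 with aspirin on M77245_at. Butyrate arrays lay above all others and peaked at 12 h. The untreated arrays were far apart, and with that of 24 h set to the floor the rise was 2.80 ± 0.62 (adjusted p = 0.0139) against untreated. Leaving out the untreated 2 h array gave adjusted p = 0.00268 for this rise and leaving out that of 24 h 0.173, and 11 of 12 such fits called it. Against aspirin it was 2.49 ± 0.19 (adjusted p = 0.00461), called in 10 of 10 fits without an array. The second probe set, rc_AI028975_s_at, read 448 and 332 untreated, 583, 849.9, 1079, 966 and 890.5 with butyrate, and 281, 404, 244, 322 and 360.1 with aspirin, again with a peak at 12 h and no overlap. Its changes were 1.15 ± 0.32 (adjusted p = 0.034) and 1.43 ± 0.22 (adjusted p = 0.0106). Without the untreated 2 h or 24 h array the adjusted p against untreated was 0.0588 or 0.155, and 6 of 12 fits without an array called it.

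Ap1s3, a small AP1 subunit, read 498 and 314 untreated, 654, 1029, 755, 794 and 710.3 with butyrate, and 394, 254, 422, 387 and 220.4 with aspirin. Its butyrate arrays lay above all others, with a difference from aspirin of 1.26 ± 0.25 (adjusted p = 0.0203) and a change from untreated of 0.98 ± 0.34 (adjusted p = 0.0791). Ap1s1, the other small subunit measured, was level, with -0.23 ± 0.24 (adjusted p = 0.581) and, against aspirin, -0.22 ± 0.19 (adjusted p = 0.424), the lowest adaptor value there.

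For the plasma membrane adaptor, Ap2a2, a large alpha subunit, read 719 and 128 untreated, 570.1, 741, 1423, 1072 and 1315 with butyrate, and 120.0, 249.9, 303, 211 and 417 with aspirin. It was above every aspirin array at each hour of butyrate, by 2.01 ± 0.20 (adjusted p = 0.0056), called in 10 of 10 fits, but the untreated 2 h array lay within the butyrate range and the change from untreated was 1.67 ± 0.61 (adjusted p = 0.0898). Ap2s1, the small AP2 subunit, was the one member whose course over the hours differed between the drugs. On U75917_g_at it went from 5241 at 2 h to 9629 at 24 h with butyrate, and from 5944 to 3930 with aspirin. The slopes with butyrate were 0.30 ± 0.07 (adjusted p = 0.0341) and 0.30 ± 0.06 (adjusted p = 0.0281) per doubling of the hours on its 2 probe sets, and the differences of slopes 0.51 ± 0.10 (adjusted p = 0.0448) and 0.46 ± 0.09 (adjusted p = 0.0482). Those differences were called in 0 and 1 of 10 fits without an array. Ap2b1 gave the largest uncalled falls of the family, -0.31 ± 0.41 (adjusted p = 0.671) with butyrate and -1.21 ± 0.41 (adjusted p = 0.381) with aspirin, and Ap2m1 was level at -0.06 ± 0.16 (adjusted p = 0.848). Ap3m1, the medium subunit of AP3, which sorts to lysosome-related organelles, read 1299.8 and 1065 untreated, 1432, 1433, 1546, 1700.1 and 1577 with butyrate, and 977, 993, 1028, 904 and 1109 with aspirin. All butyrate arrays were above all others, and the difference from aspirin was 0.62 ± 0.12 (adjusted p = 0.018). Ap3m2 had no call.

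Of 5 coatomer probe sets, 0 were called against untreated, 1 having an unadjusted p under 0.05, and 2 were higher than with aspirin, both of Copb2, the beta-prime subunit. On rc_AA893210_at it read 2288 and 1003 untreated, 2249.8, 2364, 2875, 2446 and 2119 with butyrate, and 1358, 969.8, 1360.0, 879.6 and 1169 with aspirin. Every butyrate value was above every aspirin value, and the untreated arrays lay 1 on each side of the gap. The difference from aspirin was 1.09 ± 0.14 (adjusted p = 0.00795), called in 10 of 10 fits, and the second probe set gave 0.63 ± 0.13 (adjusted p = 0.0203). Against untreated, 0.66 ± 0.29 (adjusted p = 0.15) was the largest coatomer rise, and no coatomer probe set fell. Copb1 and Copz1 stood at 0.50 ± 0.15 (adjusted p = 0.0525) and 0.39 ± 0.12 (adjusted p = 0.0604) against aspirin, and Copz2 was near the floor on every array.

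Of 13 syntaxin probe sets, 12 changed by more than 0 with butyrate against untreated, with a median of 0.43. By the test 2 rose (15.4%, against 7.78% of all) and 1 fell (7.69%, against 3.92% of all), 6 having an unadjusted p under 0.05. Against aspirin 4 were higher (30.8%, against 15.6% of all). Stx7, of late endosomes and lysosomes, read 132 and 106 untreated, 229, 393, 484, 594 and 542 with butyrate, and 178, 18.9, 75.9, 135 and 143 with aspirin. Butyrate arrays lay above all others, lowest at 2 h and highest at 16 h. It rose by 1.85 ± 0.39 (adjusted p = 0.0102), or 3.6-fold, and was higher than with aspirin by 1.79 ± 0.33 (adjusted p = 0.0166). Of 12 fits that left out 1 array 10 called this change, with adjusted p = 0.0512 without the untreated 2 h array and 0.077 without that of 24 h.

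Stx1a, the syntaxin of regulated exocytosis at the plasma membrane, read 635 and 410.1 untreated, 744, 1002, 1236, 1376 and 1752 with butyrate, and 394, 464, 540.2, 663 and 544 with aspirin on D10392_i_at. With butyrate it was higher at each later hour. It rose by 1.20 ± 0.34 (adjusted p = 0.0379) with a slope of 0.33 ± 0.06 (adjusted p = 0.0201), and its difference from aspirin, 1.19 ± 0.16 (adjusted p = 0.00851), was called in 10 of 10 fits. The call against untreated held in 4 of 12 fits without an array, at adjusted p = 0.0626 without untreated 2 h and 0.23 without untreated 24 h. On D12519_s_at the values were 89.4 and 348 untreated, 423, 490.1, 646, 888 and 877 with butyrate, and 38.6, 324, 349.5, 149.8 and 28.7 with aspirin. All butyrate values were above all others. The difference from aspirin was 1.91 ± 0.44 (adjusted p = 0.028), a call lost in each of the 10 fits without an array, and the change from untreated, with the 2 h array of 89.4 set to the floor, was 1.84 ± 0.62 (adjusted p = 0.07).

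Stx6, of the trans-Golgi and endosomes, read 263 and 241 untreated, 467, 422, 352, 691 and 575 with butyrate, and 84.1, 162, 255, 156 and 243 with aspirin. Butyrate arrays were above all others, and the difference from aspirin was 1.52 ± 0.32 (adjusted p = 0.0223), with 0.96 ± 0.40 (adjusted p = 0.138) against untreated. Stx3, the apical syntaxin of epithelia, was the syntaxin that fell: its untreated arrays read 235 and 123, while 3 of 5 butyrate and 4 of 5 aspirin arrays were at the floor, the highest being 115 with butyrate and 111 with aspirin. With those arrays set to the floor, the fall with butyrate was 0.82 ± 0.22 (adjusted p = 0.0305). Leaving out the untreated 2 h array gave adjusted p = 0.209 for this fall and leaving out that of 24 h 0.00112, and 8 of 12 such fits called it. Aspirin gave -0.84 ± 0.22 (adjusted p = 0.256), uncalled, and the largest syntaxin fall there. Stx8 gave the largest uncalled rise with aspirin, 1.64 ± 0.55 (adjusted p = 0.381) on AF033109_g_at, whose untreated arrays read -137, set to the floor, and 514. Stx4, -0.46 ± 0.13 (adjusted p = 0.0509), was the lowest against aspirin, and Stx5 and Stx12 had no call.

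Of 6 VAMP probe sets 1 rose with butyrate. Vamp3, the VAMP of recycling endosomes, lay between 2763 and 4576 with butyrate, 2082 and 2230.0 untreated and 2162 and 3909 with aspirin, where the highest value was that of 24 h. It rose by 0.85 ± 0.25 (adjusted p = 0.0399) and was higher than with aspirin by 0.51 ± 0.12 (adjusted p = 0.0335). Without the untreated 2 h or 24 h array the adjusted p against untreated was 0.181 or 0.131, and 4 of 12 fits without an array called it. Vamp2, of secretory vesicles, read 1032 and 748 untreated, 966, 1276, 1278, 874 and 1539.8 with butyrate, and 627, 551, 716, 643 and 923 with aspirin on rc_AI101103_s_at. It was higher than with aspirin, by 0.77 ± 0.16 (adjusted p = 0.0208), although the ranges overlapped, and 0.40 ± 0.29 (adjusted p = 0.391) against untreated was not called. Its other probe set gave 0.51 ± 0.20 (adjusted p = 0.109) against aspirin. Vamp1 and Vamp5 were near the floor, with changes from -0.07 ± 0.22 (adjusted p = 0.884) to 0.01 ± 0.39 (adjusted p = 1) with butyrate, and Vamp5 gave the lowest VAMP value against aspirin, -0.28 ± 0.15 (adjusted p = 0.213).

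**Figure D5:**
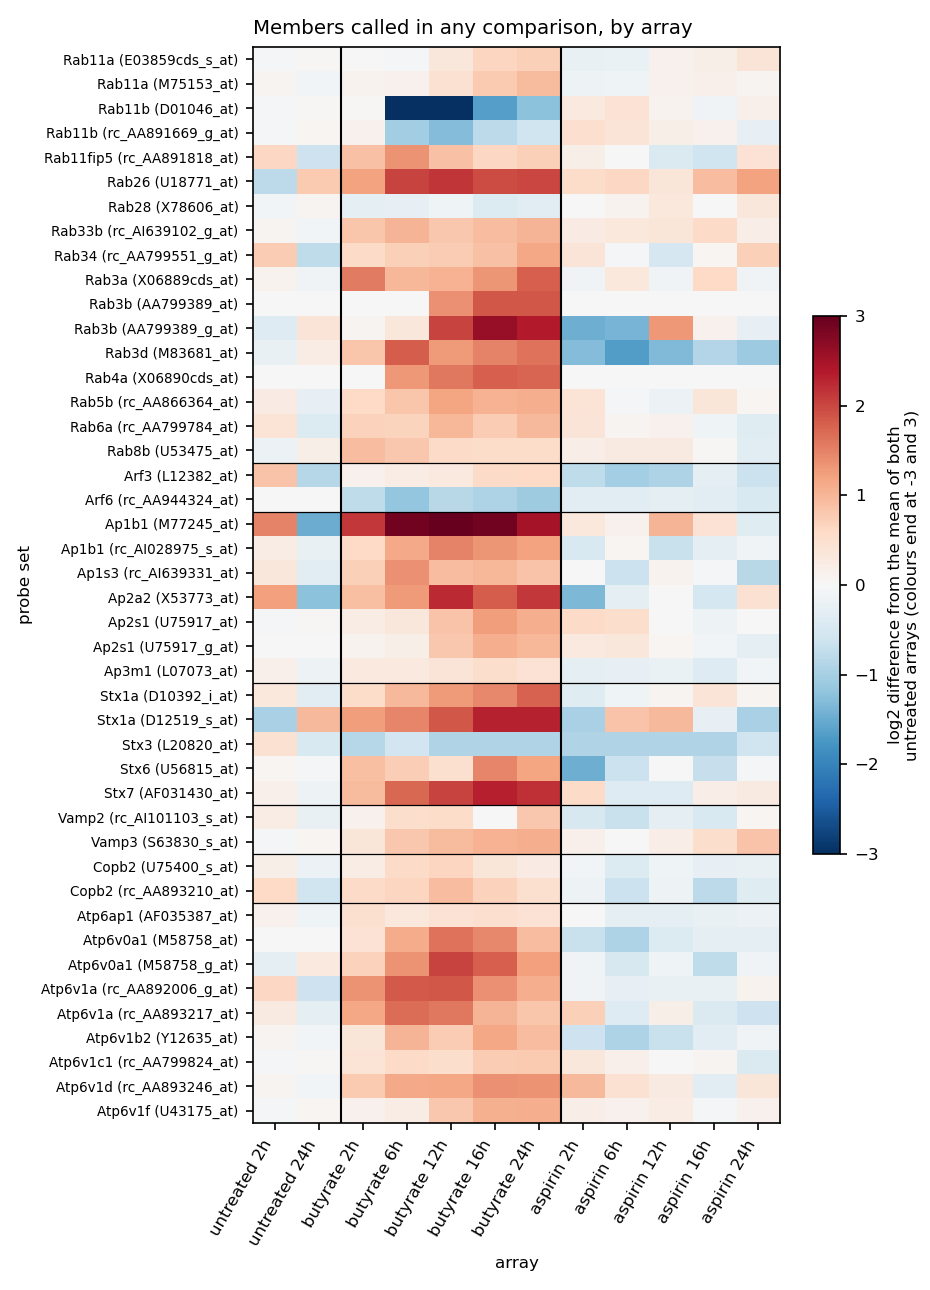
Log2 difference from the mean of both untreated arrays (colour, ending at -3 and 3) for the 44 member probe sets called in any comparison (vertical axis) on the 12 arrays (horizontal axis). Butyrate columns are mostly red and deepen after 2 h, with Arf6, Rab28 and Stx3 in blue and Rab11b in blue from 6 h. Aspirin columns are mostly pale, with deeper cells in some rows, such as Rab3d in blue at every hour.

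With aspirin, 0 of 93 members rose or fell against untreated (0.0817 and 0.0654% of all tested probe sets did). An unadjusted p under 0.05 was found for 9 of them and for 656 of all 6118 tested probe sets. The smallest adjusted p was 0.256, and the median change was -0.04. Without the untreated 24 h array 4 members were called, 1 higher and 3 lower, a share (4.30%) below that of all tested probe sets (5.002%). Changes by family ran from -1.25 to 0.73 for Rab, -0.73 (Arf3) to 0.35 (Arf2) for Arf, -1.21 to 0.31 (Ap1b1) for adaptors, -0.84 to 1.64 for syntaxins, -0.37 (Vamp2) to 0.34 (Vamp3) for VAMPs, -0.42 (Copb2) to 0.18 (Copz2) for the coatomer and -0.72 (Atp6v1a) to 0.34 (Atp6v1d) for the pump. Of the 12 pump probe sets 9 were negative, and 7 when arrays were centred on their medians, which also turned the Arf median from -0.10 to 0.07. On the aspirin arrays the ratio of signal from the 3′ and 5′ ends of beta-actin was 1.03 to 1.55, against 0.998 to 1.03 untreated and 0.962 to 1.06 with butyrate. That of GAPDH was 1.10 to 1.24 with aspirin, 1.19 to 1.31 untreated and 1.05 to 1.17 with butyrate. The part of either ratio in the values was not tested.

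Over the hours of butyrate, 7 members rose (7.53%; 4.79% of all tested probe sets) and 0 fell (4.2% of all), namely Atp6v1f, Rab11a, Rab3b, Rab4a, Stx1a and both probe sets of Ap2s1. Without the butyrate 24 h array 1 rose (1.08%; 2.29% of all) and without that of 16 h 2 did (2.15%; 2.11% of all), shares below and near those of all, and without that of 2 h 3 did (3.23%; 0.67% of all). Centring arrays on their medians gave 2 rising (2.15%; 2.52% of all) and 2 falling (2.15%; 8.71% of all). With aspirin 0 members rose or fell (1.32 and 0.327% of all). Of the 93 members 18 had an unadjusted p under 0.05 there, as did 1204 of all 6118 tested probe sets. The slopes differed between the drugs for the 2 probe sets of Ap2s1, upward (0.686% of all), and for none downward (1.05% of all).

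Where a gene had more than 1 tested probe set, as 22 did, the sets did not always agree. Both sets of Atp6v0a1, Ap1b1, Stx1a and Copb2 were higher than with aspirin, and both of Ap2s1 had rising slopes. Against this, 1 of 3 sets of Atp6v1a and of Rab11a and Rab11b was not called, and 1 of 2 sets of Rab33b was at the floor on every array but 1. The uncalled set of Rab11a was still higher with butyrate than with aspirin at each hour. Sets whose name ends in _s_at can pick up related transcripts as well.

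Among 7 lists of partners of these genes, 2 had the highest shares of rises with butyrate against untreated. They were the list of coats and that of the exocyst and tethers, which also holds genes of cargo sorting at endosomes. The difference between lists was not tested. Of all tested probe sets, 7.78% rose and 3.92% fell with butyrate, and 15.6% were higher and 9.61% lower than with aspirin. Of 28 probe sets for clathrin, COPII and other coats, 6 rose (21.4%) and 1 fell (3.57%) with butyrate. Against aspirin 11 were higher (39.3%) and 2 lower (7.14%), and the medians were 0.40 and 0.51. Hip1, which links clathrin to actin, rose by at least 1.96 ± 0.36 (adjusted p = 0.00577), Dnm1, a dynamin that pinches off vesicles, by 2.63 ± 0.77 (adjusted p = 0.0414) with both untreated and 1 of 5 butyrate arrays set to the floor, and Cltb, a clathrin light chain, by 1.38 ± 0.31 (adjusted p = 0.015). Bin1, which bends membrane, rose by 1.24 ± 0.35 (adjusted p = 0.0354) and 1.26 ± 0.32 (adjusted p = 0.0258) on its 2 probe sets, and Synj1, an uncoating phosphatase, by 0.86 ± 0.23 (adjusted p = 0.0284) with 1 of 2 untreated arrays set to the floor. Tmed10, a cargo receptor of the early secretory pathway, fell, by 0.63 ± 0.15 (adjusted p = 0.0176). Further probe sets of these genes were not called: those of Cltb gave 0.42 ± 0.18 (adjusted p = 0.145) and 0.23 ± 0.20 (adjusted p = 0.492), that of Synj1 1.39 ± 0.51 (adjusted p = 0.0902) and that of Tmed10 -0.64 ± 0.23 (adjusted p = 0.0845). Hip1 alone was called both without the untreated 2 h array (adjusted p = 0.0466) and without that of 24 h (0.0374). For the others the adjusted p reached 0.203 without the former and 0.252 without the latter.

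Of 13 probe sets for the exocyst, tethers and endosomal sorting, 3 rose against untreated (23.1%, against 7.78% of all). Of these 3 only Exoc2 is of the exocyst. Against aspirin 9 of the 13 were higher (69.2%, against 15.6% of all), and the medians were 0.64 and 1.06. Vps26a, of the retromer that retrieves cargo from endosomes, rose from 118 and 87.6 untreated to between 373 and 849, by 2.55 ± 0.40 (adjusted p = 0.0021) with 1 of 2 untreated arrays set to the floor, and stayed called without the untreated 2 h array and without that of 24 h. Hgs, of endosomal sorting, rose by 1.09 ± 0.24 (adjusted p = 0.0131) and Exoc2, of the exocyst, by 1.83 ± 0.53 (adjusted p = 0.0397), while the other probe set of Exoc2 gave 1.38 ± 0.44 (adjusted p = 0.0553). Hgs had adjusted p = 0.0434 without the untreated 2 h array and 0.0641 without that of 24 h, and Exoc2 0.0546 and 0.338.

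Of 26 probe sets for SNARE partners 2 rose (7.69%; 7.78% of all) and 1 fell (3.85%; 3.92% of all) against untreated, shares near those of all. Against aspirin 6 were higher (23.1%; 15.6% of all) and 1 lower (3.85%; 9.61% of all). Snap23, the SNAP of non-neuronal exocytosis, rose by 1.01 ± 0.25 (adjusted p = 0.0214), Vps33b, a tether of late endosomes, by at least 1.41 ± 0.30 (adjusted p = 0.0103), and Gosr1, a Golgi SNARE, fell by 1.47 ± 0.41 (adjusted p = 0.0362). The other 2 probe sets of Vps33b were level, at 0.15 ± 0.30 (adjusted p = 0.804) and 0.04 ± 0.26 (adjusted p = 0.946), and the other of Snap23 gave 0.62 ± 0.27 (adjusted p = 0.152). Without the untreated 2 h array the adjusted p of the called Snap23, Vps33b and Gosr1 sets was 0.0529, 0.0641 and 0.181, and without that of 24 h 0.0593, 0.0566 and 0.106. Of 14 for Rab regulators and effectors none rose and 1 fell (7.14%; 3.92% of all), and 5 were higher (35.7%; 15.6% of all) and 2 lower (14.3%; 9.61% of all) than with aspirin. The one that fell was Rabggtb, the catalytic subunit of the enzyme that attaches the lipid anchor to Rab proteins, which read 5109 and 5340.1 untreated, 1888, 1649, 1551, 1454 and 1565 with butyrate, and 4778 to 6719 with aspirin. No butyrate array came near another group. Its fall of 1.69 ± 0.17 (adjusted p = 0.000291) and its difference from aspirin of -1.72 ± 0.08 (adjusted p = 0.00202) had the smallest adjusted p of all 6118 probe sets in both comparisons. Its adjusted p was 0.00197 without the untreated 2 h array and 0.00108 without that of 24 h.

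Of 15 probe sets for Arf regulators 1 rose (Pld2, a phospholipase that Arf activates, at least 1.76 ± 0.53 (adjusted p = 0.0484)) and 1 fell (1 of 3 for Arl1, a Golgi relative of Arf, -1.10 ± 0.30 (adjusted p = 0.0343)). The other 2 of Arl1 went the other way without a call, at 0.66 ± 0.21 (adjusted p = 0.0603) and 0.20 ± 0.22 (adjusted p = 0.607), and the other of Pld2 gave 0.99 ± 0.37 (adjusted p = 0.0975). Of 15 for sorting receptors and endosome or lysosome membrane, Lamp2 rose by 1.24 ± 0.34 (adjusted p = 0.0335) on 1 of 3 probe sets and Tfrc, the transferrin receptor, fell by 1.11 ± 0.33 (adjusted p = 0.0434). Of 15 for exocytosis proteins of secretory vesicles, Syngr1 rose by at least 1.56 ± 0.26 (adjusted p = 0.00325) and Scamp2 by 1.17 ± 0.27 (adjusted p = 0.0177). Of these 6 Syngr1 alone stayed called without the untreated 2 h array (adjusted p = 0.0234, against 0.142 to 0.347 for the others), and Syngr1, Lamp2 and Scamp2 without that of 24 h. The shares that rose against untreated were 6.67, 6.67 and 13.3% for these 3 lists (7.78% of all), and those that fell 6.67, 6.67 and 0% (3.92% of all). Against aspirin, 2, 3 and 3 of these lists' probe sets were higher (13.3, 20 and 20%; 15.6% of all) and 0, 2 and 0 lower (0, 13.3 and 0%; 9.61% of all). None of the 7 lists had a call for aspirin against untreated.

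Several risers are known from neurons and secretory cells, so markers of those cells were read on the same arrays. Of 11 marker genes on the array, 6 (Chgb, Nefl, Nefm, Scg3, Syt1 and Gad1) were at the floor on every array, and of 5 tested probe sets 0 were called against untreated and 2 were higher than with aspirin. The summed level of the list was 911.5 and 1071.5 untreated, 471 to 2216 with butyrate and 407 to 1093 with aspirin. On U30938_at Map2 read 124, 430, 1036, 868 and 1033 with butyrate and 181 and 91.6 untreated, a change of 2.09 (adjusted p = 0.0644). Its other probe sets were at the floor on every array. Syp reached 271 at 24 h of butyrate, with a change of 0.54 (adjusted p = 0.294). Snap25 gave -0.38 (adjusted p = 0.706) and 0.36 (adjusted p = 0.478) on its tested probe sets, and Scg2 0.07 (adjusted p = 0.808). The part of these markers in the changes of Rab3a, Rab3b, Rab26 and Stx1a was not tested.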

How the data were processed

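RNA of CC531 cells was measured on 12 arrays, grouped by the treatment and hour in their titles. The deposited table holds linear intensities of 8799 probe sets, 59 of them controls, left out here. How the authors computed and scaled them is not given in the sources used here. Near-equal trimmed means show that the deposited intensities had been scaled, so no further normalization was applied. The number of arrays limits the precision.

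Values were raised to a floor of 90.91 (the absolute value of their 10th percentile, which is negative) and put on a log2 scale. Probe sets averaging below the 30th percentile over the arrays (log2 6.54) were not tested. Fits used limma 3.58.1 in R 4.3.3 (lmFit, eBayes with a variance trend) on all 6118 tested probe sets, with Benjamini-Hochberg adjustment and a threshold of 0.05: treatment against untreated on 12 arrays (9 residual degrees of freedom), butyrate against aspirin on 10 arrays with the hour as a block (4), and slopes over log2 hours (6). The scripts were tested on simulated data. Tables and figures used Python 3.11.15 with pandas 2.3.3, numpy 2.4.6 and matplotlib 3.10.9.

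Every called member and every tested Atp6 member is named, with values by array for the 25 called genes of smallest adjusted p and, for each family, the largest change in each direction. Gene names come from the platform annotation. All 102 members matched RefSeq by gene number, and 0 symbols had changed. A pair of probe sets that name Rab1a together with Rab1b was left out, as were 4 of Cops genes, which encode the COP9 signalosome. The members, lists and tests were chosen with earlier results of these data known. Alternatives were quantile normalization, median centring, another floor, no filter, no variance trend, the hour as a factor, other blocks, slopes over hours, and each array left out.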

Additional observations from a re-analysis of the deposited data

Results flagged for a closer look

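Of 88 groups of 5 arrays looked at, for the called members under butyrate and aspirin, 5 were flagged, near the number that chance would give. In these the distance of 1 array from its nearest neighbour took up more than 0.71 of the group's range, in floored log2 values. Chance passes that limit in about 1 of 20 groups, a rate that does not hold where several arrays are at the floor. For Rab26 the butyrate 2 h array was far below the other 4, at 543.4, and for Rab4a it was again the lowest, at 91.6. Arf6 had its lowest aspirin value at 24 h, 9751.5, with the other 4 aspirin arrays close together. Stx3 was flagged in both treatments, with the highest butyrate value at 6 h, 114.7, and the highest aspirin value at 24 h, 111.2, among arrays at or near the floor. Its other 4 aspirin arrays were all set to the floor, so the share there was fixed at 1.

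For 3 probe sets every butyrate array lay above both untreated arrays and every aspirin array below both. They were Rab3d, with a log2 difference between the drugs of 2.66, Atp6v0a1 on its dimmer probe set, with 1.62, and Atp6v1b2, with 1.38. The difference between the drugs was called in limma for each, while the lower level with aspirin was not called against untreated for any of them. The slopes of Ap2s1 over the hours differed between butyrate and aspirin by 0.51 and 0.46 per doubling of the hours on its 2 probe sets (adjusted p = 0.0448 and 0.0482, limma).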

How the results depend on the processing

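For butyrate against untreated, 17 members were called, and 14 to 18 with quantile normalization, median centring, another floor or no variance trend. The count was 11 with no filter, 6 with the hour as a factor and 0 with only the 2 h and 24 h arrays, and 7 to 30 when 1 array was left out. For butyrate against aspirin the 38 calls became 26 to 44 under the other settings and 9 to 40 without an array. Quantile normalization gave 29 higher and 8 lower there. Median centring moved the median difference from 0.51 to 0.19 and turned Rab11a (E03859cds_s_at) to -0.031, the only called member whose sign changed. It also moved all probe sets by -0.14 for butyrate and 0.17 for aspirin against untreated. Aspirin against untreated had 0 calls, and 0 to 4 without an array. Its median of -0.04 was -0.086 with the lower floor, 0.13 with median centring, 0.00 with no filter or quantile normalization, -0.073 with the hour as a factor and -0.098 to 0.042 without an array. The 7 butyrate slopes became 4 with median centring or no filter and 1 to 10 without an array. Aspirin slopes, 0 before, numbered 1 with the higher floor, median centring, no filter or quantile normalization, 2 over hours, and 0 to 1 without an array. The 2 differences of slopes became 0 with median centring or no filter, 1 with no variance trend or over hours, and 0 to 3 without an array. No filter tests more probe sets and the 2 h and 24 h fit has fewer arrays; for the other settings the cause was not tested. The replicate numbers here were given in order of hour and pair no arrays beyond it. Between the drugs the hour was the block, which pairs their arrays by hour, and without it 44 members were called. Intensities near the floor of 90.91 limit what can be seen in the 21 members that reach it.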
